A study of Mus musculus with 12 samples.

Results

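The 10 genes described here encode the small apolipoproteins that mouse liver releases on lipoproteins or hands to them in plasma, namely Apoa1, Apoa2, Apoa4, Apoa5, Apoc1, Apoc2, Apoc3, Apoc4, Apoe and Apom. They were chosen by symbol for the kind of protein they encode. All 10 were found among the 35498 genes of the deposited count table, and all 10 were among the 11181 genes tested. RNA was sequenced from 6 libraries of the WAM fraction and from 6 libraries of the postnuclear lysate, 1 of each from each of 6 mice. WAM stands for wrappER-associated mitochondria, that is mitochondria isolated together with the rough endoplasmic reticulum (ER) that curves around them, and the lysate is the liver extract, cleared of nuclei and debris, from which the WAM fraction was made. Both groups came from male C57BL/6N mice of 9 to 12 weeks, fasted overnight and studied 3 h after a meal. They carried no allele or agent that set them apart, so the comparison is between the 2 preparations of the same livers. It asks whether these mRNAs hold a larger or a smaller share of the WAM fraction than of the lysate. No other membrane fraction was compared, and the material was liver with all its cell types.

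Apolipoproteins coat the lipid droplets of plasma lipoproteins, keep them soluble, and act as cofactors, inhibitors and receptor ligands. The exchangeable ones pass from particle to particle, whereas apolipoprotein B (Apob), which is very large, stays with the very low density lipoprotein (VLDL) it was built into. All are secretory proteins: their mRNAs are translated on ribosomes that a signal peptide at the start of the protein brings to the rough ER, and hepatocytes are the main source of most of them.

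The genes are short and mostly grouped. In GENCODE M21 (GRCm38), 4 of them lie within 43.3 kb of chromosome 9: Apoa1 at chr9:46228580-46230466, Apoc3 at chr9:46232933-46235636, Apoa4 at chr9:46240696-46243459 and Apoa5 at chr9:46268633-46271919. Of these Apoc3 is on the minus strand and the others are on the plus strand. Another 4 lie within 27.6 kb of chromosome 7, all on the minus strand: Apoc2 at chr7:19671579-19677941, Apoc4 at chr7:19678083-19681479, Apoc1 at chr7:19689481-19692660 and Apoe at chr7:19696109-19699188. Apoa2 is at chr1:171225054-171226379 on the plus strand and Apom at chr17:35128997-35132050 on the minus strand. Their annotated principal transcripts run from 453 bases for Apoc3 to 2515 for Apoa5, with coding lengths from 267 bases for Apoc1 to 1188 for Apoa4, against a transcript of 13934 bases and a coding length of 13518 for Apob. The gene Gm44805 overlaps Apoc2 and Apoc4 on the same strand, so part of their reads could be assigned to it; it held 84.7 to 206.9 estimated counts in a library, against 870.1 to 2119.8 for Apoc2 and at least 3011 for Apoc4. On the opposite strand, Gm47528 and Gm10680 overlap Apoa4 and Gm47544 overlaps Apoa5. Whether counting used strand is not given in the sources used here, so reads of these antisense genes could not be told apart from those of Apoa4 and Apoa5.

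The first 60 coding bases of each mRNA are shown because they encode the signal peptide, or its first part, through which the nascent protein is directed to the ER. They were read from the GENCODE M21 transcripts, 5′ to 3′, with the start codon in capitals.
Apoa1: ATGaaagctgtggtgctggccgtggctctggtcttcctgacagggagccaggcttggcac
Apoa2: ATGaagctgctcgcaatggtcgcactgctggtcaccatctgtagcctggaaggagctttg
Apoa4: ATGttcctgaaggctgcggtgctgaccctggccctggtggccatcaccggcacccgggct
Apoa5: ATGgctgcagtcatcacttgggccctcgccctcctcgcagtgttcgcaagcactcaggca
Apoc1: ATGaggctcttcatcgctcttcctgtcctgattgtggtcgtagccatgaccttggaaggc
Apoc2: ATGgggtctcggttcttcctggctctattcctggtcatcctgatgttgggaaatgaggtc
Apoc3: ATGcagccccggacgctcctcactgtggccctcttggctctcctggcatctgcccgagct
Apoc4: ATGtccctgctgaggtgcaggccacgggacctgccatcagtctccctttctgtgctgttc
Apoe: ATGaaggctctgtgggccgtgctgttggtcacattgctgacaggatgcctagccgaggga
Apom: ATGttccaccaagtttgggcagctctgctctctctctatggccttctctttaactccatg
Codons with T in the middle encode the hydrophobic amino acids phenylalanine, leucine, isoleucine, methionine and valine. Among the first 20 codons, start codon included, the 10 mRNAs had 8 to 13 such codons, with the fewest in Apoa5 and Apoc3 and the most in Apoc1 and Apoc2. Over 10975 tested genes with a coding sequence the median was 6, and 23.5% had at least 8. The cut of 8 is the lowest value of the 10 genes themselves, so all 10 meet it by construction. Of the genes with at least 8, 54.3% were called higher in WAM by the test described below, against 29.5% of all tested genes. Among genes with at least 8, those called higher were 9 of the 10 small apolipoproteins and 10 of 14 other short secreted proteins. Of the short cytosolic proteins with at least 8, 0 of 5 were called higher. The figure for the small apolipoproteins only repeats their calls, and a part of these codons in the change between fractions was not tested.

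Total estimated counts ranged from 8344196 to 9712455 in WAM libraries and from 7400274 to 12024128 in lysate libraries. The 13 mitochondrially encoded mRNAs made up 17.9% ± 4.63 of counts in WAM libraries and 2.69% ± 0.374 in lysate libraries (SD, n = 6 each). All 8 hepatocyte markers were detected, at 3.39% to 8.13% of counts in WAM libraries and 3.86% to 7.07% in lysate libraries. Of 8 measured enterocyte markers 6 were at 0 in every library (Lct, Alpi, Cdh17, Krt20, Mep1a and Cdx2), and Vil1 reached 2 counts at most. The eighth, Fabp2, a fatty acid carrier of enterocytes, was detected in all 12 libraries, at 235 to 645 counts in WAM libraries and 327 to 1189 in lysate libraries (means of 49.1 TPM in WAM libraries and 116 TPM in lysate libraries). With Fabp2 included, the measured enterocyte list held 0.00242% to 0.00677% of counts in WAM libraries and 0.0039% to 0.00989% in lysate libraries. The 11 Kupffer cell markers together held 0.0272% to 0.0964% of counts in WAM libraries and 0.0184% to 0.0729% in lysate libraries, with the highest value of each fraction in mouse 5. Without mouse 5 the highest values were 0.0395% in WAM libraries and 0.031% in lysate libraries. The 9 neutrophil markers were also highest in mouse 5 in both fractions, at 0.00051% in WAM and 0.00156% in lysate. The 7 stellate cell markers held 0.0193% to 0.0255% of counts in WAM libraries and 0.0162% to 0.0226% in lysate libraries. By the test described below, 4 of the 8 hepatocyte markers were called higher in WAM and 4 lower, 10 of 11 Kupffer cell markers higher, and 5 of 7 stellate cell markers higher.

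Levels of different genes were compared as TPM, a length-corrected share of all transcripts in the library. The most abundant was Apoa2, with 18310 ± 2563 TPM in WAM libraries and 17120 ± 1855 TPM in lysate libraries, and the least abundant was Apom, with 225 ± 33.71 TPM in WAM libraries and 224.4 ± 17.72 TPM in lysate libraries (SD, n = 6 each). In WAM libraries Apoe followed Apoa2 at a mean of 16080 TPM, then Apoc1 at 9494, Apoa1 at 7856, Apoc3 at 4763, Apoc4 at 1572, Apoa5 at 565.5, Apoc2 at 405.3 and Apoa4 at 244.8. Lysate libraries gave the same order, with Apoe at 15110 TPM, Apoc1 at 9031, Apoa1 at 7482, Apoc3 at 4274, Apoc4 at 1582, Apoa5 at 641.9, Apoc2 at 406.8 and Apoa4 at 264.2. Of the 9 pairs of neighbours in this order, 6 held it in 6 of 6 WAM libraries and in 6 of 6 lysates. The exceptions were Apoc1 over Apoa1, which held in 5 of 6 mice in either fraction, Apoc2 over Apoa4, which held in 4, and Apoa4 over Apom, which held in 2. The closest pair that kept its order was Apoa2 over Apoe, which differed by a mean log2 TPM ratio of 0.19 ± 0.0825 in WAM libraries and 0.18 ± 0.0949 in lysate libraries (SD, n = 6 each). The order of this pair rests on the length correction: with counts divided by annotated transcript length, Apoe came before Apoa2 in lysates. The most abundant were near the top of the whole transcriptome: by TPM, Apoa2 ranked between 8 and 18 in WAM libraries and between 3 and 7 in lysate libraries, and Apoe between 10 and 22 in WAM libraries and between 4 and 9 in lysate libraries. Together the 10 mRNAs made up 5.95% ± 0.721 of TPM in WAM libraries and 5.61% ± 0.458 in lysate libraries. With the mitochondrially encoded mRNAs left out of the total, the share was 8.07% ± 0.661 in WAM libraries and 5.94% ± 0.511 in lysate libraries, and it was higher in WAM in 6 of 6 mice.

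**Figure D1:**
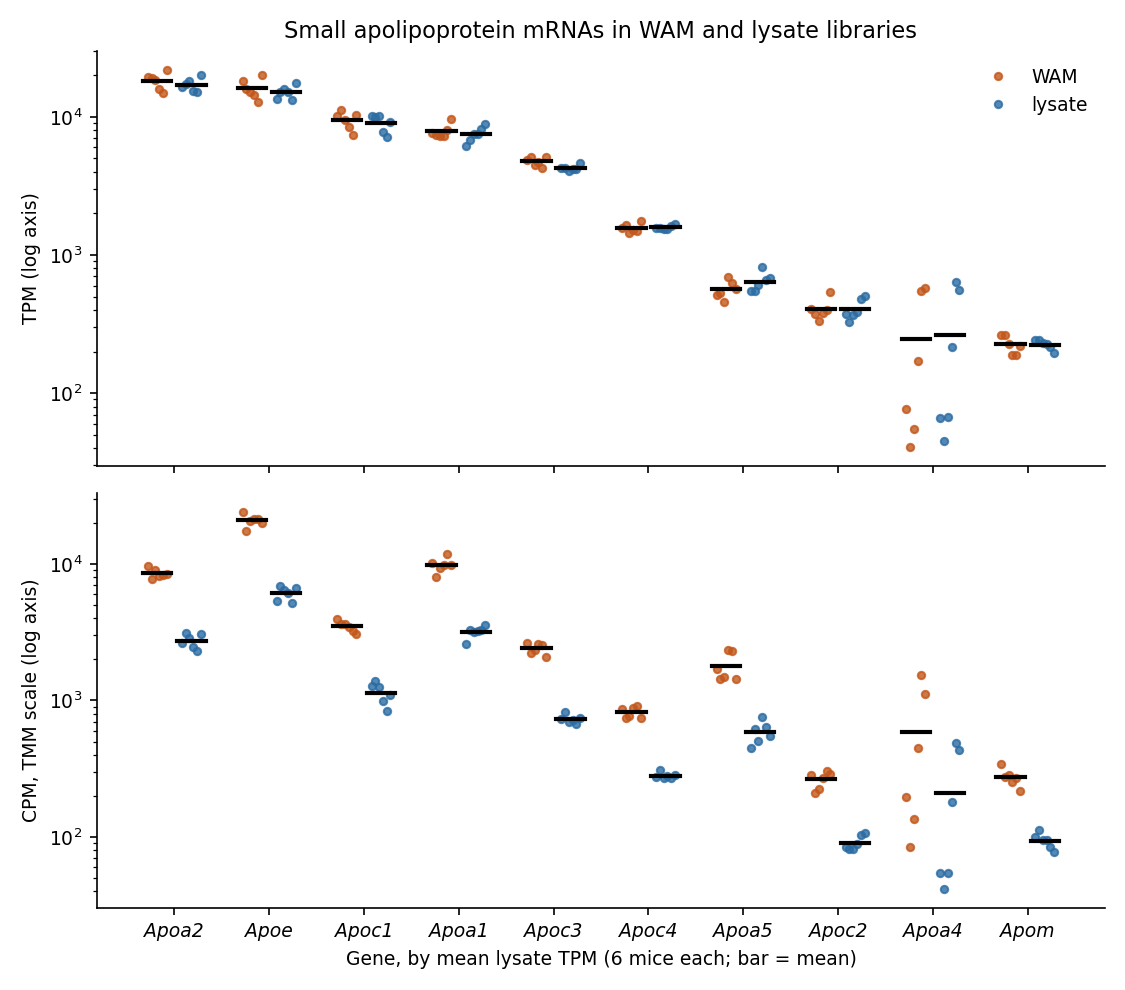
TPM (upper panel) and CPM on the TMM scale (lower panel) of the 10 mRNAs in 6 WAM and 6 lysate libraries, both on log axes; points are libraries in mouse order and bars are means. The fractions overlap for all 10 genes in TPM, and in CPM they are apart for all but Apoa4.

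For each gene, the 2 fractions were compared as CPM on the TMM scale. This is the share of a library's counts after a rescaling that centres the libraries on the bulk of the mRNAs. On that scale 9 of the 10 mRNAs rose in WAM relative to lysate, by 2.90-fold to 3.40-fold, and 0 fell. The tenth, Apoa4, had a similar fold change and a far larger spread. Scaled by the authors' mitochondrial coefficient, however, all 10 were called lower, as were 99.7% of all tested genes. On the TMM scale, 29.5% of all 11181 tested genes were called higher and 28.8% lower (edgeR's quasi-likelihood test, Benjamini-Hochberg adjusted p under 0.05). The median log2 fold change of the 10 was 1.61, against -0.08 over all tested genes. In CPM every WAM library was above every lysate library for 9 of the 10 genes, against 20.3% of all tested genes. On this CPM scale all 10 were higher in WAM in 6 of 6 mice. By TPM, the number of mice with the higher value in WAM ran from 0 of 6 for Apoa5 to 6 of 6 for Apoc3. The share of all tested genes that were higher in 6 of 6 mice was not computed. These libraries are bulk preparations, in which fewer cells of a type and less RNA per cell cannot be told apart. The values are relative, not amounts per liver, and CPM on the TMM scale is not the plain share of a library's counts. As a plain share, the 10 mRNAs together held 3.3% ± 0.171 of counts in WAM libraries and 2.23% ± 0.14 in lysate libraries (SD, n = 6 each). Within mice the mean ratio of these shares, WAM over lysate, was 1.48.

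Of the proteins of high density lipoprotein (HDL), Apoa1 is its main structural protein and an activator of the cholesterol-esterifying enzyme LCAT. Its mRNA ranged from 7973 to 11850 CPM in WAM libraries (median 9848) and from 2608 to 3574 CPM in lysate libraries (median 3240). Its log2 fold change was 1.62 (SE 0.13, adjusted p = 2.48e-07). Apoa2, the second protein of HDL by abundance, ranged from 7816 to 9616 CPM in WAM libraries (median 8352) and from 2297 to 3123 CPM in lysate libraries (median 2763). The log2 fold change of Apoa2 was 1.64 (SE 0.12, adjusted p = 1.34e-07). Apom, a lipocalin that carries sphingosine-1-phosphate on HDL, is the least abundant of these 3 and ranged from 216.7 to 342.5 CPM in WAM libraries (median 274.4) and from 77.1 to 112.6 CPM in lysate libraries (median 94.9). For Apom the log2 fold change was 1.54 (SE 0.12, adjusted p = 1.67e-07). For none of the 3 did the fractions overlap.

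Apoe, the ligand through which remnant particles are taken up by receptors of the LDL receptor family, had the highest fold change of the 10. It ranged from 17540 to 24030 CPM in WAM libraries (median 20950) and from 5175 to 6934 CPM in lysate libraries (median 6303). The log2 fold change was 1.77, with an SE of 0.14 (adjusted p = 2.12e-07), and 99.5% of tested genes had a lower one.

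The remaining small apolipoproteins act mostly on lipoprotein lipase, the enzyme that unloads triglyceride from VLDL and chylomicrons. Apoc2 is its obligatory cofactor and had 264.7 ± 37.34 CPM in WAM libraries and 91.2 ± 11.11 CPM in lysate libraries (SD, n = 6 each). Its log2 fold change was 1.54 (SE 0.12, adjusted p = 1.2e-07). Apoa5, which promotes the enzyme's action and is known for lowering plasma triglyceride, had 1782 ± 428.1 CPM in WAM libraries and 586 ± 109.4 CPM in lysate libraries, and its log2 fold change was 1.6 (SE 0.17, adjusted p = 2.73e-06). The inhibitor Apoc3 ranged from 2096 to 2617 CPM in WAM libraries (median 2440) and from 672.8 to 822.4 CPM in lysate libraries (median 727.8). At 1.72 (SE 0.10, adjusted p = 3.99e-08) its log2 fold change was second to that of Apoe. Apoc1, which also slows lipolysis and particle uptake, had 3487 ± 319.5 CPM in WAM libraries and 1141 ± 204.9 CPM in lysate libraries (log2 fold change 1.61, SE 0.14, adjusted p = 3.41e-07). Apoc4, a minor protein of VLDL, had 820.9 ± 75.35 CPM in WAM libraries and 282 ± 15.2 CPM in lysate libraries (log2 fold change 1.54, SE 0.09, adjusted p = 3.99e-08). The cofactor and the inhibitors of lipoprotein lipase were thus all higher in WAM on this scale, and for none of these 5 did the fractions overlap.

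Apoa4, made by liver and small intestine and carried on chylomicrons and HDL, differed from the others in its spread between mice. In WAM libraries of mice 1 to 6 it had 196.5, 84.95, 136.5, 450.8, 1547 and 1125 CPM. In lysate libraries of the same mice it had 54.46, 41.67, 54.66, 179.5, 489.9 and 434.1 CPM. Mice 1 to 3 were low, mouse 4 was intermediate and mice 5 and 6 were high in both fractions, and within each mouse the WAM library was the higher. The log2 fold change was 1.50 (SE 0.80, adjusted p = 0.121), and the fractions overlapped. With the mouse as a block in the model, the log2 fold change was 1.43 (SE 0.10, adjusted p = 7.13e-10), and all 10 genes were called higher; of all tested genes, 33.5% were then called higher and 36.2% lower. Without the WAM library of mouse 5 the unblocked log2 fold change of Apoa4 was 0.92, and without both libraries of mouse 5 it was 1.38.

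The sign of these changes depended on how libraries were put on a common scale, and their position above the typical mRNA did not. Scaled to library totals, the 10 log2 fold changes ran from 0.34 to 0.65 against a median of -1.19 over all tested genes, and the same 9 genes were called higher, as were 4.5% of all tested genes. From TPM without further scaling (log2 of TPM plus 1, limma) they ran from -0.18 to 0.15 against a median of -1.22, and 0 were called, while 0.501% of all tested genes were called higher. In TPM no gene's fractions were apart, and 0.286% of all tested genes had every WAM library above every lysate library. The authors' mitochondrial coefficient was applied here to the library totals of counts, whereas the authors divided TPM by it, so this is not the authors' own scale. Scaled in this way, the 10 ran from -1.99 to -1.54 against a median of -3.35, and all 10 were called lower, as were 99.7% of all tested genes. The mitochondrially encoded mRNAs had a median of 0.42 in this fit. In all 30 alternatives run, each of the 10 lay above the median of all tested genes. The distance to that median was between 0.55 and 2.02 on the log2 scale.

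Transcript length also moved with the fold change. With a trend on effective length taken off, the log2 fold change of Apoc1 was 0.92, that of Apoc4 0.95, that of Apoa2 1.02, that of Apoc2 1.03 and that of Apoc3 1.12. The longer mRNAs moved less, to 1.28 for Apom, 1.37 for Apoa1, 1.45 for Apoa4, 1.52 for Apoe and 1.62 for Apoa5. The same 9 were called higher after this correction, as were 25.9% of all tested genes. The order of the genes by fold change was therefore not the same with it and without it, and the median of the 10 was 1.2, against -0.11 for all tested genes.

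**Figure D2:**
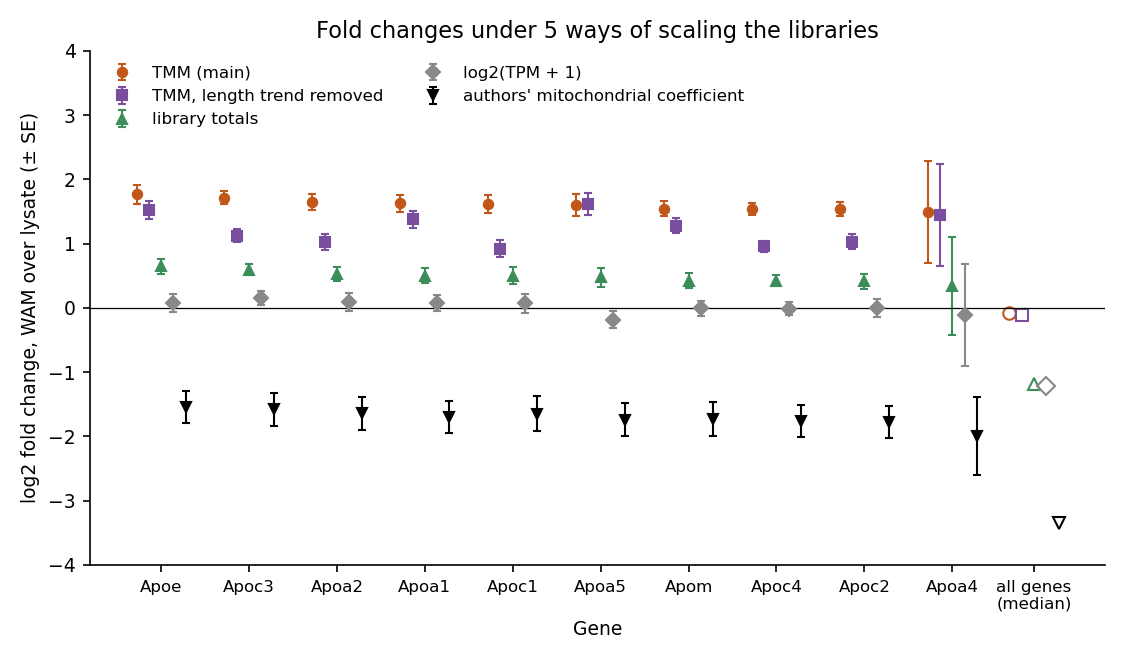
Log2 fold change, WAM over lysate, with its SE for each of the 10 mRNAs under 5 ways of scaling 12 libraries (filled symbols), and the median of all tested genes under each (open symbols at the right). With TMM 9 of 10 are called higher, against 29.5% of all tested genes. With the authors' coefficient, applied to counts, all 10 are called lower, as are 99.7% of all tested genes. Under each of the 5 the filled symbols lie above the open one of the same shape.

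A ratio of 2 mRNAs of the same library does not depend on that scaling. Each small apolipoprotein was therefore divided by Apob, the apolipoprotein that stays with its particle, and by Alb, serum albumin, the most abundant secreted protein of hepatocytes. Apob and Alb themselves were higher in WAM on the TMM scale, by log2 fold changes of 1.35 (SE 0.19, adjusted p = 3.4e-05) and 1.32 (SE 0.27, adjusted p = 0.000929). The log2 ratio of Apoe to Apob was 0.333 ± 0.296 in WAM libraries and -0.119 ± 0.241 in lysate libraries (SD, n = 6 each), a difference of 0.45. The ratio was higher in WAM in 6 of 6 mice, by 0.25 to 0.67 (two-sided exact permutation p = 0.013 over 924 assignments, adjusted p = 0.13 over 20 ratios). The mean difference was 0.40 for Apoc3 to Apob and 0.31 for Apoa1 to Apob, each above 0 in 6 of 6 mice (exact permutation p = 0.0325 and 0.00649, adjusted p = 0.216 and 0.13).

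In all, 0 of the 20 ratios passed after adjustment, and 4 of the 10 to Apob had an unadjusted exact permutation p under 0.05. The fourth was Apoc2, with a mean difference to Apob of 0.22, above 0 in 4 of 6 mice (exact permutation p = 0.0498, adjusted p = 0.249). When the 2 labels were swapped inside each mouse, 10 of the 20 ratios, 5 to Apob and 5 to Alb, were higher in WAM in 6 of 6 mice and had the smallest exact permutation p that 64 assignments allow, 0.0312 (adjusted p = 0.0625). These were Apoa1, Apoa2, Apoa5, Apoc3 and Apoe to either gene, and Apoc2 to Apob had an exact permutation p of 0.219. At least 13 of the 20 would have had to reach that smallest p for any to pass after adjustment. All 20 mean differences were above 0, from 0.11 for Apoa4 to Apob up to 0.46 for Apoe to Alb. Computed from TPM, those of Apoe, Apoa1 and Apoc3 to Apob were 0.0202, 0.0117 and 0.0929, and those of Apoa4, Apoa5, Apoc2, Apoc4 and Apom were below 0, at -0.18, -0.24, -0.07, -0.07 and -0.07. To Alb all 10 differences from TPM were above 0, with Apoe at 0.31 and Apoc3 at 0.39. Single libraries also moved these values. Apoa4's ratios changed sign when 1 library was left out. Without the WAM library of mouse 2, 7 of the other 9 differences to Apob moved by over 1.5 times, with Apoc3 at 0.26, Apoc2 at 0.13 and Apom the lowest at 0.0652. Without the WAM library of mouse 5, all 9 differences to Alb other than that of Apoa4 moved as far, to between 0.0113 for Apoc2 and 0.28 for Apoe. The 2 reference genes also varied between mice, and their spread enters every ratio. The SD of log2 CPM was 0.407 in WAM libraries and 0.19 in lysates for Apob, and 0.506 and 0.479 for Alb. A difference from Apob or Alb was thus not shown for any of the 10 after adjustment, which does not show that they moved alike.

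**Figure D3:**
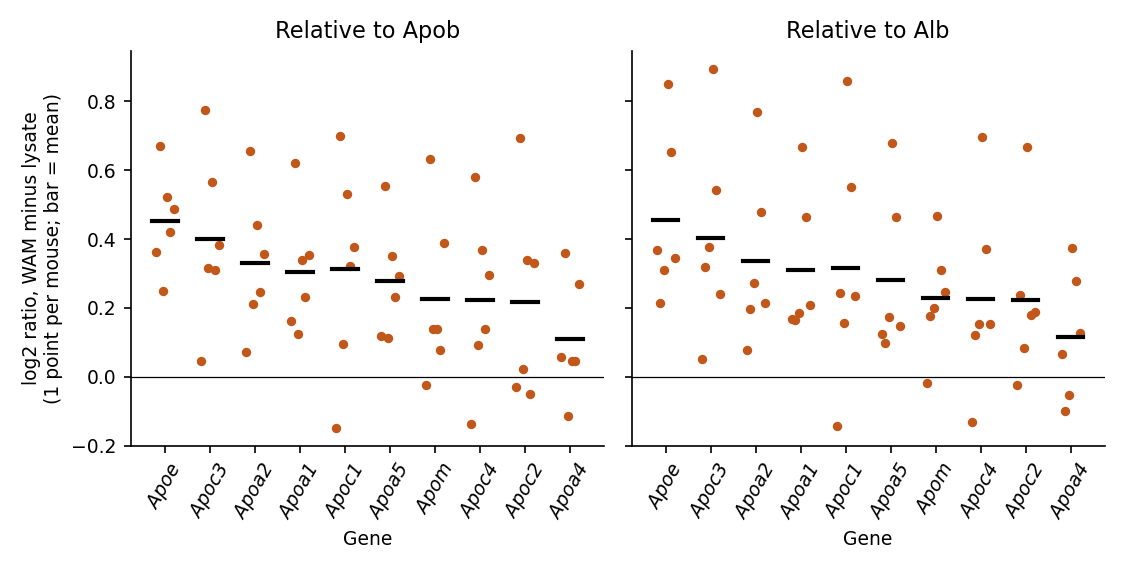
Difference between WAM and lysate in the log2 ratio of each small apolipoprotein to Apob (left) and to Alb (right), 1 point per mouse with the mean as a bar. All 20 means lie above 0; those of Apoe are 0.45 and 0.46, and 0 of 20 passed the adjusted test. The ratios are from counts; from TPM 5 of the 10 means to Apob are below 0.

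Spread between mice separated Apoa4 from the other 9. The SD of its log2 CPM was 1.69 in WAM libraries and 1.59 in lysate libraries, and its highest value was 18.2 times its lowest in WAM libraries and 11.8 times in lysate libraries. Among 6887 genes with a mean of at least 10 CPM, 45 had a larger SD in lysates. In lysates Apoc4 had the smallest SD of the 10, 0.0753, and 8.2% of the 6887 genes had a smaller one; its SD in WAM libraries was 0.132, where Apoa2 had the smallest at 0.108. For the other 8, the SD was between 0.108 and 0.332 in WAM libraries and between 0.1 and 0.27 in lysate libraries, against medians over the 6887 genes of 0.213 in WAM libraries and 0.154 in lysate libraries. Kupffer cell and neutrophil markers were highest in mouse 5, where Apoa4 was also highest in both fractions in CPM. By TPM, Apoa4 was highest in mouse 6 in WAM libraries (576.5, against 546.8 in mouse 5) and in mouse 5 in lysates. No library of another mouse exceeded 0.0395% of counts for the Kupffer cell list. Fabp2, of the enterocyte list, was highest in mouse 6 in both fractions, at 88.4 CPM in WAM and 67.31 CPM in lysate. In the other mice Fabp2 reached at most 53.92 CPM in WAM libraries and 55.62 CPM in lysates. Of the same list, 6 genes were at 0 in every library and Vil1 reached 2 counts at most. The part of these markers in the spread of Apoa4 was not tested.

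Deviations from the mean of each fraction were correlated between genes over the 12 libraries, as a description; each mouse gives 2 of these libraries and each library 1 depth and 1 preparation. Apoc2 followed Apoa4 (Pearson's r = 0.90, and 0.86 without the 2 libraries in which Apoa4 was farthest from its median). Apoc1 and Apom ran against it, with r of -0.80 and -0.71 (-0.76 and -0.79 without those 2). The closest pair of the 10 was Apoc3 and Apoc4, with r = 0.92, although they lie on different chromosomes. The 6 pairs of the chromosome 9 group had a median r of 0.48 (range -0.16 to 0.70) and the 6 pairs of the chromosome 7 group a median of 0.33 (range -0.54 to 0.64). The 33 pairs on different chromosomes had a median of 0.38 (range -0.80 to 0.92), so pairs inside a gene cluster covered values that pairs outside covered too.

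**Figure D4:**
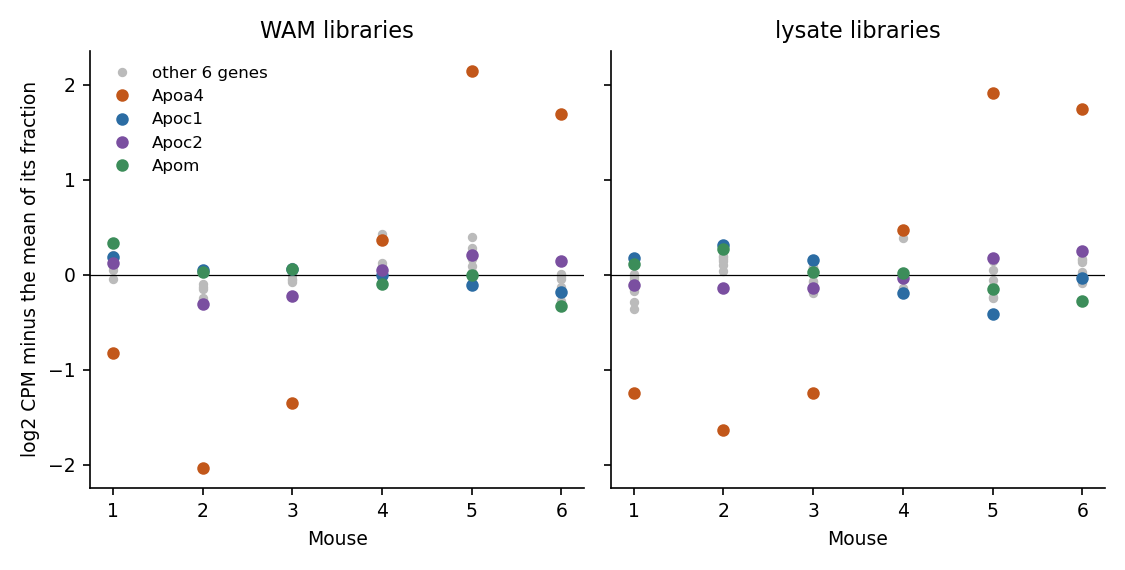
Log2 CPM minus the mean of its fraction for the 10 mRNAs, by mouse, in WAM libraries (left) and lysate libraries (right). Apoa4 is low in mice 1 to 3 and high in mice 5 and 6 in both fractions; Apoc2 deviates mostly the same way on a smaller scale, except in the WAM library of mouse 1 and the lysate of mouse 4, and Apoc1 and Apom mostly the other way.

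Among the 6886 other genes with a mean of at least 10 CPM, those closest to Apoa4 were the chaperone gene Hsp90ab1 (r = 0.99), the pyruvate carboxylase gene Pcx (0.98), Sdsl (0.97), Ei24 (0.97) and Tmem120a (0.96). Without the 2 farthest libraries these r were between 0.94 and 0.99. Hsp90ab1 spanned 477 to 1120 CPM in WAM libraries and 541 to 1110 CPM in lysate libraries, and its log2 fold change between the fractions was 0.01 (adjusted p = 0.974). Around Apoa2, the most abundant of the 10 by TPM, the closest were the immunoglobulin transport receptor gene Pigr (r = 0.92), the organic cation exporter gene Slc47a1 (0.90), Rdh7 (0.89), Sdc2 (0.89) and Hsd17b12 (0.88). Of the small apolipoproteins, Apoe was the closest to Apoa2, at position 22 (r = 0.83, and 0.71 without the 2 farthest libraries).

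Genes that act with the small apolipoproteins were taken from lists by function. Of 17 genes of VLDL assembly and secretion, 15 were higher and 2 lower in WAM on the TMM scale, with a median log2 fold change of 1.38. P4hb, the shared subunit of the microsomal triglyceride transfer protein, had the highest at 1.65 (SE 0.14, adjusted p = 2.37e-07). Both genes that fell, A1cf at -1.08 (SE 0.10, adjusted p = 8.87e-07) and Apobec1 at -0.46 (SE 0.14, adjusted p = 0.0121), encode the editing complex that converts a base in Apob mRNA rather than proteins of the secretory pathway; Apobec1 is named because it is one of 2. Of 15 genes of HDL remodelling and lipases, 13 were higher and 0 lower (median 1.30), and with the mouse as a block all 15 were higher. The paraoxonase gene Pon1, whose product rides on HDL, reached 1.43 (SE 0.16, adjusted p = 4.11e-06). The medians of both lists were below 0 under the authors' coefficient (-1.94 for either) and with TPM plus 1 (-0.12 for assembly and -0.25 for HDL and lipases), and were above the median of all tested genes in both cases.

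Of 7 tested genes of other apolipoproteins, 5 were higher and 0 lower in WAM (median 1.49). Apoh, which binds phospholipid, had 2681 ± 381.3 CPM in WAM libraries and 918.9 ± 113.2 CPM in lysate libraries (log2 fold change 1.54), and Apon had the highest log2 fold change, 1.67. Apol9a had the lowest, -0.05 (SE 0.17, adjusted p = 0.81), with 40.72 ± 11.04 CPM in WAM libraries and 42.28 ± 7.446 CPM in lysate libraries; it has a close copy, Apol9b, at -0.01, and counts of the pair are uncertain. Of 9 tested receptors and their partners, 7 were higher and 1 was lower (median 1.34). Under TPM plus 1 the medians of the 2 lists were -0.06 and -0.11, against -1.22 for all tested genes. Among them Lsr, a receptor of triglyceride-rich particles, had the highest value, 1.56, and Lrp1, a large remnant receptor, reached 1.02 from the most counts, followed by the proteoglycan gene Sdc1 at 1.51. Mylip, a ubiquitin ligase that marks the LDL receptor for degradation, was lower at -0.73 (SE 0.23, adjusted p = 0.0152).

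Regulators of apolipoprotein genes, mostly nuclear transcription factors, stood on the other side. Of 21 tested, 2 were higher and 10 lower (median -0.31), with the mouse as a block 4 were higher and 12 lower, and the median was below that of all tested genes under each of 6 settings compared. Hnf4a, which drives many of these genes in hepatocytes, had 561.8 ± 34.99 CPM in WAM libraries and 768.4 ± 42.74 CPM in lysate libraries (log2 fold change -0.45, SE 0.08, adjusted p = 0.000396). Cebpa was at -0.16 (adjusted p = 0.175), and Nr1d1 had the lowest value, -0.61 (SE 0.32, adjusted p = 0.118, adjusted p = 8.54e-07 when blocked by mouse). The 2 that were higher without the block were Creb3l3 at 1.04 (SE 0.10, adjusted p = 7.04e-07) and Srebf2 at 0.73 (SE 0.22, adjusted p = 0.0123), both made as proteins anchored in the ER membrane; Srebf2 is named because it is one of 2.

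Short mRNAs of secreted and of cytosolic proteins gave different values. Of 15 other short secreted plasma proteins, 11 were higher and 0 lower, and with the mouse as a block all 15 were higher; their median was 1.58, near the 1.61 of the small apolipoproteins. The retinol carrier gene Rbp4 reached 1.68 (SE 0.14, adjusted p = 3.67e-07) and the thyroxine carrier gene Ttr 1.52 (SE 0.18, adjusted p = 7.46e-06). Saa1, an acute-phase apolipoprotein, had the highest value, 1.93, and was not called without the block (SE 1.73, adjusted p = 0.356, adjusted p = 1.09e-09 when blocked by mouse). Igfbp1 had the lowest, 1.04 (SE 0.59, adjusted p = 0.141, adjusted p = 1.39e-09 when blocked by mouse). Of 19 short mRNAs of cytosolic proteins, 3 were higher and 3 lower (median 0.16), and with the mouse as a block 9 were higher and 4 lower. Hint1 had the highest value of these, 0.61 (SE 0.08, adjusted p = 1.48e-05). The ferritin genes Fth1 and Ftl1 were lower at -1.04 (SE 0.11, adjusted p = 1.77e-06) and -0.74 (SE 0.13, adjusted p = 0.000256), and Gstp1 was at -0.05 (adjusted p = 0.846). The cytosolic median lay 0.24 above that of all tested genes on the TMM scale but stood at -0.16 relative to it with TPM plus 1 and at -0.17 with the length trend taken off. In their first 20 codons the secreted proteins of this list had a median of 10 codons with T in the middle and the cytosolic ones a median of 5.

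**Figure D5:**
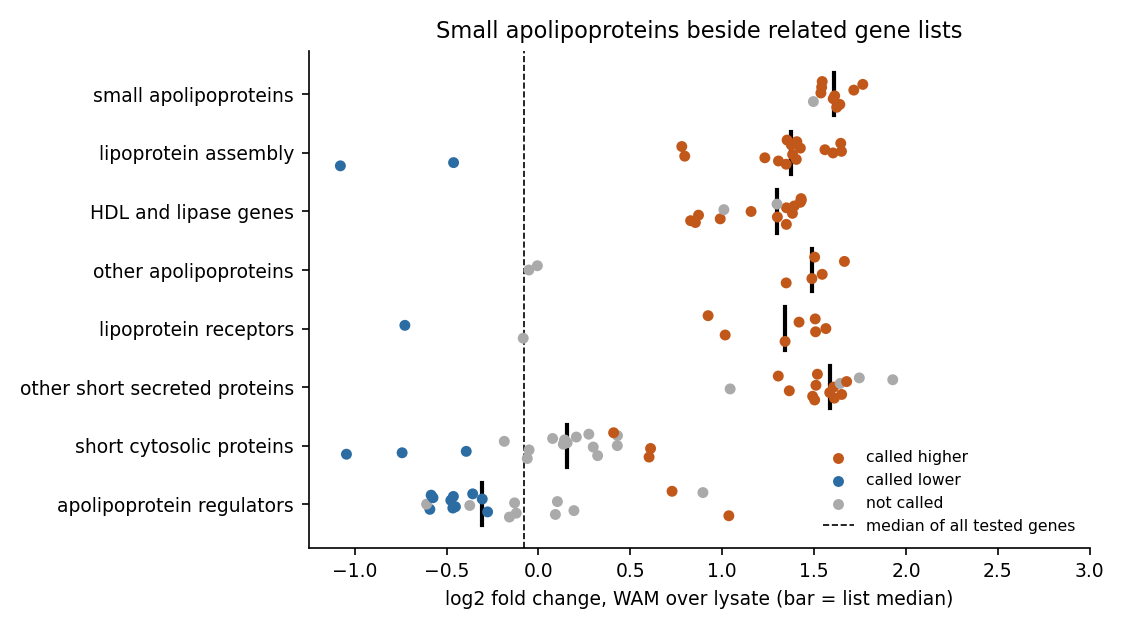
Log2 fold change, WAM over lysate, on the TMM scale for each tested gene of 8 lists (points, coloured by the call at an adjusted p under 0.05 without the mouse as a block) with list medians as bars and the median of all tested genes, -0.08, as a dashed line. Small apolipoproteins (median 1.61) and other short secreted proteins (1.58) lie far to the right, and regulators (-0.31) to the left; scaled by the authors' coefficient every median shown is below 0, with all tested genes at -3.35.

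The authors' deposited table expresses enrichment as coefficient-divided WAM TPM in percent of lysate TPM and lists 1160 genes, with a median of 15.4%. In the authors' deposited table Apoc3 has the highest value of the 10, 24.8%, at rank 69, and Apoa5 the lowest, 19.6%, at rank 395. According to the authors' deposited table, 9 of the 10 are at or above 20%, as are 360 of the 1160 genes, and the exception is Apoa5. Further, Apob stands at 22.6% and Alb at 19.6% in the authors' deposited table, inside the range of the small apolipoproteins. These percentages rest on TPM. In the fit above that applied the coefficient to counts, Apoe was the highest of the 10 at -1.54 and Apoa4 the lowest at -1.99.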

How the data were processed

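The deposited count table holds estimated counts for each gene, which need not be whole because reads shared by several transcripts are split. The submitters' processing notes name kallisto 0.44.0, fastp 0.12.4, R 3.5.0 and DESeq2 1.20.0. Neither the genome build nor the annotation, nor whether strand entered the counting, is given in the sources used here; libraries were directional per the labels. The authors' complete list gives TPM. The authors' enrichment score was made, per the file headers, by dividing WAM TPM by a coefficient (the WAM to lysate ratio of a mouse, averaged over its 13 mitochondrially encoded mRNAs) and expressing the result in percent of lysate TPM. Another 60 per-sample columns stayed unused.

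Repeated lines (48042) were reduced to 1 for each of 35498 genes. Estimated counts were rounded, since 32.5% of those above 0 had decimals. The test was edgeR 4.0.16 in R 4.3.3 (TMM, filterByExpr, quasi-likelihood F test, Benjamini-Hochberg over 11181 genes); the filter kept at least 99.7% of each library's counts, and SE is the log2 fold change divided by the root of F. The code was tested on simulated counts. Alternatives were DESeq2 1.42.0, 3 other scalings, 2 filters, limma 3.58.1 on log2 TPM with pseudocounts of 1, 0.1 and 5 (such fold changes are understated for low genes) and with median centring, a lowess length trend (span 0.3), the mouse as a block, each library left out, and, added after seeing the data, each mouse left out. Ratios were tested by exact permutation over 924 assignments. The precision rests on 6 libraries per fraction.

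Columns of the count table carry the mouse number, so libraries with the same number are from the same animal. Deviations of the 2 libraries of a mouse correlated with r of 0.609 to 0.887, against at most 0.576 for other combinations. Libraries of a fraction differed by at least 12.3 times the sampling noise (chi-square per degree of freedom), and the biological coefficient of variation was 23.8% in WAM and 20.6% in lysates. The 10 genes and the lists were chosen with earlier results of these data known. Named are the 10 genes, Apob, Alb, the 2 most abundant genes and the highest and lowest fold changes of each list, and the 5 nearest patterns of Apoa2 and Apoa4; of 170 list symbols 169 were found. A gene that this rule names is not reported here. Mitochondrially encoded genes and cell type markers are given as sums and counts.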

Additional observations from a re-analysis of the deposited data

Results flagged for a closer look

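In 3 of 40 groups of 6 libraries, 1 library stood apart from the rest by Dixon's criterion; chance flags about 1 in 20 groups. Apoa1 had 9650 TPM in the WAM library of mouse 6, with the next highest at 8020 and the lowest at 7230. Apoc2 had 542 TPM in the same library, with the next highest at 408 and the lowest at 331. Apoc4 had 311 CPM in the lysate of mouse 2, with the next highest at 284 and the lowest at 269. The spread of Apoa4, wider than that of the other 9 genes, met no such criterion, because its low, middle and high mice fill the range.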

How the results depend on the processing

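Of the 30 alternatives to the count test, 26 called the same 9 or all 10 genes higher in WAM. Of all tested genes, 33.5% were called higher with the replicate block, 4.5% with library totals and 25.9% with the length trend taken off. That share was not computed for the rest of the 26. The replicate block, with the mouse as the pairing, called 10, and each single library or mouse left out called 9. With log2 of TPM plus 1, plus 0.1 or plus 5, 0 were called, and the log2 fold changes of Apoa4 (-0.12, -0.12 and -0.11), Apoa5 (-0.18 under each), Apoc2 (-0.0051 under each), Apoc4 (-0.0121 under each) and Apom (-0.0057, -0.0058 and -0.0055) were below 0. With the authors' mitochondrial coefficient 0 were called higher and 10 lower, and 99.7% of all tested genes were called lower. The 10 were Apoa1 at -1.69, Apoa2 at -1.64, Apoa4 at -1.99, Apoa5 at -1.74, Apoc1 at -1.65, Apoc2 at -1.78, Apoc3 at -1.58, Apoc4 at -1.76, Apoe at -1.54 and Apom at -1.73. These scalings put the median of all tested genes at -3.35 (coefficient) and at -1.22, -1.54 and -0.73 (TPM plus 1, 0.1 and 5). The cause of the differences between count and TPM folds was not tested.

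No ratio to Apob or Alb passed in any of the 14 alternatives. With labels exchanged within mice (the replicate block) 0 were called, in a test that could pass only with at least 13 of 20 ratios at the smallest p, which 10 reached. From TPM, the differences to Apob were -0.18 for Apoa4, -0.24 for Apoa5, -0.0662 for Apoc2, -0.0732 for Apoc4 and -0.0668 for Apom. With single libraries left out, Apoa4's difference ranged from -0.24 to 0.47 to Apob and from -0.48 to 0.68 to Alb. Differences of the other 9 moved by over 1.5 times in 7 to Apob without WAM 2, 9 to Alb without WAM 5, 5 to Alb and 1 to Apob without lysate 5, 3 to Alb and 1 to Apob without lysate 6, and 1 to Alb each without WAM 4, WAM 6 and lysate 3, all still above 0. The order by TPM in lysates put Apom above Apoa4 without lysate 5 or lysate 6; per annotated transcript length, Apoe came before Apoa2, Apoa1 before Apoc1 and Apoa4 before Apoc2, and 6 of 9 pairs again held in every lysate. Of 30 alternatives, 25 left Apoa4 uncalled and above 0. The precision rests on 6 mice; the lowest count of the 10 genes was 440, for Apoa4 in the lysate of mouse 2.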
